A study of Saccharomyces cerevisiae with 18 samples.

Results

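The genes described are the 33 members of a list of systematic names: 32 genes for subunits of the yeast proteasome and RPN4, the gene for their transcriptional activator. The rule names genes and holds no measured value, but the list was drawn up with earlier results of these data known. All 33 had a row among the 5143 rows of the RNA-seq count table, and all 33 passed the filter on low counts. By role they were 7 core beta subunits, 7 core alpha subunits, 6 base ATPases, 4 base scaffold and receptor subunits, 8 lid subunits and the activator. The libraries came from bulk cultures of Saccharomyces cerevisiae, 3 of wild type (WT) and 3 of the temperature-sensitive mutant ten1-31. Ten1 belongs to the telomeric Cdc13-Stn1-Ten1 complex, and the series sets gene activity in the mutant against WT. Cultures of both genotypes were held overnight at 25 °C and then grown at 34 °C for nearly 5 h, so every library comes from warmed cells. RNA was depleted of ribosomal RNA before a strand-specific library was made. The labels give no strain background, no other allele and no statement that replicates were separate cultures, so p-values measure the spread between these samples, which may be technical.

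The proteasome degrades proteins that carry ubiquitin chains. Its barrel-shaped core is built of stacked rings of alpha and beta subunits, and the proteolytic sites lie on beta subunits inside the barrel. A regulatory particle caps the core: a base with a ring of ATPases that unfold substrates, scaffold subunits and ubiquitin receptors, and a lid that holds the deubiquitinase Rpn11. In budding yeast most of these genes share a promoter element, PACE, bound by the activator Rpn4. Rpn4 is itself a short-lived substrate of the proteasome, marked by the ubiquitin ligase Ubr2 with its partner Mub1, and RPN4 transcription responds to Hsf1, Yap1, Pdr1 and Pdr3. The promoter sequences were not analysed here.

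Library totals ran from 10469608 to 14442999 counts, and the median row held 817 to 1057 of them. TEN1 itself had 97, 108 and 132 counts in WT and 394, 319 and 419 in ten1-31, a rise of 1.77 ± 0.13 (SE) on the log2 scale (edgeR, adjusted p = 7.15e-05). The allele's sequence is not visible in counts, so this level does not check the mutation. Of 5133 rows tested, edgeR called 2591 at an adjusted p under 0.05, which is 50.5%, with 1248 higher in ten1-31 (24.3%) and 1343 lower. The 12 ChIP-seq libraries of the series were not analysed here.

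Differences between genotypes were small for most proteasome genes, and those called were all higher in ten1-31. In the edgeR fit 11 of 33 rose and 0 fell, a share of 33.3% rising beside the 24.3% of all rows. This excess over the background depended on the setting. It was absent with a replicate block, at 8 of 33 (24.2%) beside 25.5% of rows, and with a 1.5-fold limit, at 2 of 33 (6.06%) beside 10.8%. Without WT replicate 3 or without ten1-31 replicate 2 the count was 6 of 33 (18.2%), beside 17.4% and 17.3% of rows. The median difference of the 33 was 0.16 on the log2 scale, which is 1.12-fold, beside -0.0038 over all rows. The interquartile range was 0.07 to 0.28, and the whole range was -0.08 to 0.82. PUP1, RPN2, RPN10, RPN1 and RPT1 had the largest rises, with PUP1 at 0.82 (95% interval 0.66 to 0.97) and RPN2 next at 0.66 (0.48 to 0.84). Another 22 genes were not called. An unadjusted p under 0.05 was found for 16 of 33, while 50.5% of all rows passed even the adjusted threshold in either direction.

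All 33 genes but PRE3 and RPT6 had a difference above 0, although with upper quartile scaling 7 lay below 0, and RPT6 lay at or above 0 with library size only or DESeq2's size factors. In 22 of 33 genes the CPM values (counts scaled to TMM library size) were higher in every ten1-31 library than in every WT library. Over all rows that held for 29.0%. None of the 33 was lower in every ten1-31 library, and 11 overlapped. With upper quartile scaling 15 were higher in every ten1-31 library and 1 was lower, beside 25.4% of rows higher. With library size only 29 were higher, beside 36.5% of rows. In bulk RNA a change in RNA per cell and a change in the share of cells that express a gene cannot be told apart.

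**Figure D1:**
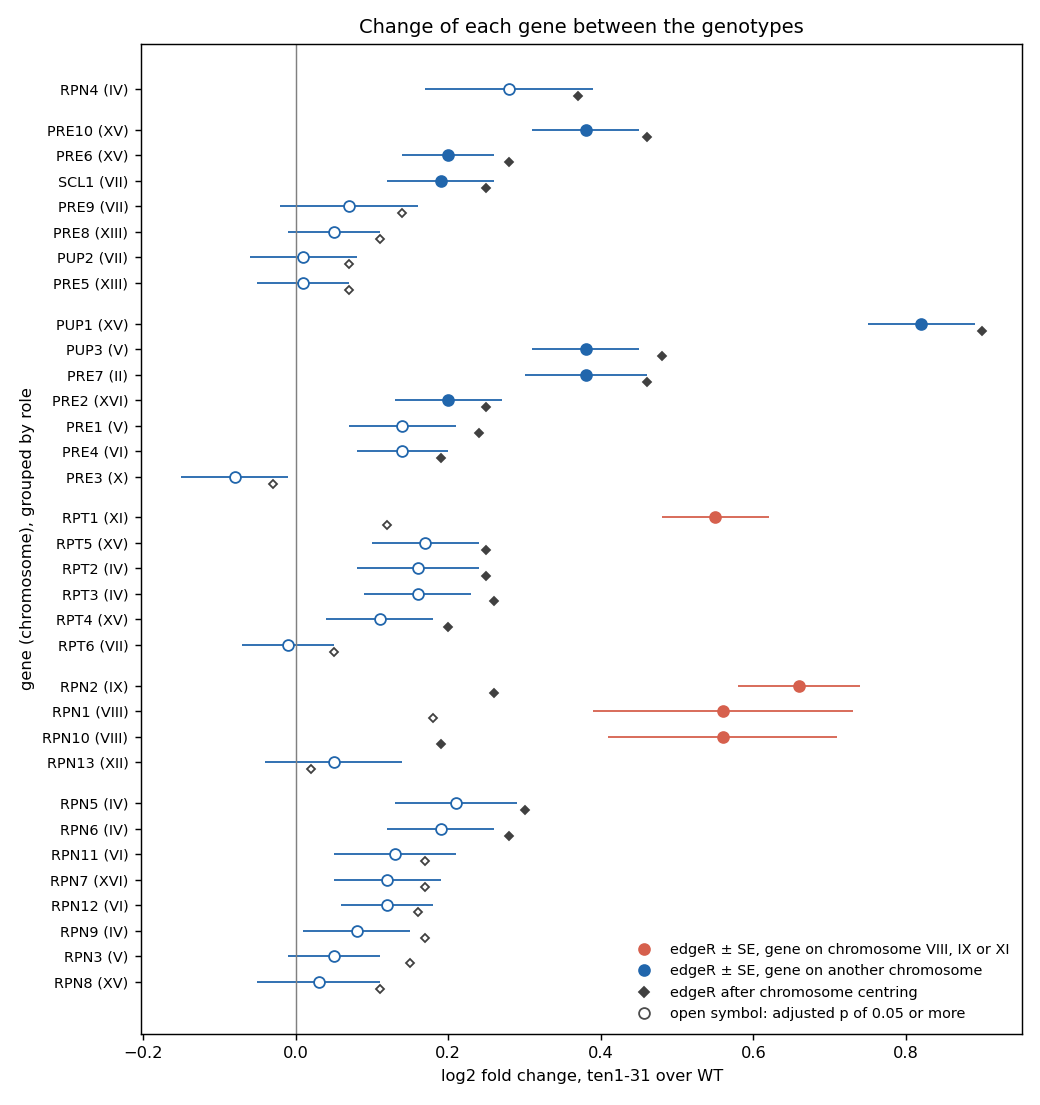
Log2 fold change (ten1-31 over WT) of each of the 33 genes, grouped by role: circles with a bar for the standard error are the edgeR fit of 3 libraries per genotype (red on chromosomes VIII, IX and XI), diamonds are the fit after centring each chromosome, and filled symbols have an adjusted p under 0.05. Filled circles lie between 0.19 and 0.82, the circles of the 8 lid genes lie between 0.03 and 0.21, and the diamonds of RPT1, RPN2, RPN1 and RPN10 lie far to the left of their circles.

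RPN4 (YDL020C, chromosome IV, 415113 to 416708 in build R64) encodes the activator. It was at 95.4, 132 and 113 CPM in WT and at 142, 137 and 134 CPM in ten1-31. The ten1-31 libraries lay close together and just above the highest WT library, and most of the spread came from WT, with replicate 1 the lowest. The difference was 0.28 ± 0.11 (SE) on the log2 scale and did not pass the threshold (edgeR, adjusted p = 0.0769). It passed in 3 of 16 settings tried: with library size only at 0.35 (edgeR, adjusted p = 0.0485), without WT replicate 2 at 0.40 (0.00951), and after centring each chromosome at 0.37 (0.0197). Without WT replicate 1 it was 0.17. The 95% interval, not adjusted for the number of rows, reached from 0.01 to 0.54.

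The WT order of RPN4 was also that of the general stress genes, a list of 14 tested genes such as HSP12 and HSP26. Their median deviations from the mean of all 6 libraries were -0.82, 0.06 and -0.41 log2 units in WT replicates 1, 2 and 3. In ten1-31 they were 0.40, 0.48 and 0.45. Growth state or stress of the WT cultures as a part of the RPN4 difference was not tested. The proteasome genes themselves varied less between WT libraries, with median deviations of -0.14, -0.07 and -0.02 in WT and 0.10, 0.11 and 0.04 in ten1-31.

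Of the core beta genes, 4 of 7 rose (PUP1, PUP3, PRE7 and PRE2), or 57.1% beside 24.3% of all rows. The median of the 7 was 0.20. PUP1 (YOR157C, chromosome XV, 630966 to 631751) encodes the beta subunit with trypsin-like activity. Its values were 111, 102 and 102 CPM in WT and 186, 185 and 183 CPM in ten1-31. The libraries of each genotype agreed closely and the groups were far apart. The rise was 0.82 ± 0.07 (SE), or 1.76-fold (edgeR, adjusted p = 0.000104), and PUP1 was called in all 16 settings, with differences from 0.77 to 0.90.

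PUP3 and PRE7 encode beta subunits without a proteolytic site. PUP3 read 146, 155 and 158 CPM in WT against 202, 203 and 192 CPM in ten1-31, and PRE7 read 132, 154 and 148 CPM against 195, 190.4 and 178 CPM. Neither gene overlapped between genotypes, and each rose by 0.38 (edgeR, adjusted p = 0.00266 for PUP3 and 0.00626 for PRE7). PRE2, for the subunit with chymotrypsin-like activity, was at 106, 116 and 115 CPM in WT and at 130.3, 131 and 124 CPM in ten1-31. Its rise of 0.20 passed by a small margin (adjusted p = 0.0430 in edgeR) and was called in 9 of 16 settings.

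PRE3 (YJL001W), for the subunit with caspase-like activity, was the lowest of all 33 genes at -0.08 ± 0.07 (SE; edgeR, adjusted p = 0.335). It read 136, 125 and 140.2 CPM in WT and 124, 128 and 126 CPM in ten1-31, so the groups overlapped. The genes of the 3 proteolytic subunits thus read 0.82, 0.20 and -0.08. PRE4 was higher in every ten1-31 library and PRE1 overlapped. PRE1 and PRE4, for beta subunits without a proteolytic site, were both at 0.14 and not called.

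The core alpha genes split into PRE10, PRE6 and SCL1, which rose, and 4 genes within 0.07 of 0. The share rising was 42.9%, beside 24.3% of all rows. The alpha subunits form the outer rings of the core, which gate the entry of substrates. PRE10 was at 150.2, 163 and 164 CPM in WT and 211, 213 and 198 CPM in ten1-31, with no overlap. It rose by 0.38 ± 0.07 (SE; edgeR, adjusted p = 0.0032) and was called in all 16 settings. PRE6 was at 187, 182 and 175 CPM in WT and 213, 211 and 203 CPM in ten1-31, a rise of 0.20 (edgeR, adjusted p = 0.0322). SCL1 was at 150.2, 141 and 139 CPM in WT and 167, 165 and 157 CPM in ten1-31, a rise of 0.19 (edgeR, adjusted p = 0.0470). In both genes the groups were separate but close.

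PRE6 was called in 10 of 16 settings and SCL1 in 9. Both calls were lost with a replicate block, with upper quartile scaling and without WT replicate 3 or any 1 ten1-31 library. The lowest alpha gene was PUP2, at 193, 202 and 208 CPM in WT and 211, 199 and 195 CPM in ten1-31. Its groups overlapped and its difference was 0.01 ± 0.07 (SE; edgeR, adjusted p = 0.949), with a 95% interval of -0.15 to 0.16. PRE5, PRE8 and PRE9, the last encoding the one core subunit yeast can live without, were at 0.01, 0.05 and 0.07.

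Among the 6 base ATPase genes only RPT1 was called, and RPT2 to RPT6 were not. The share rising was 16.7%, beside 24.3% of all rows. The ATPases form the ring that unfolds substrates and threads them into the core. RPT1 (YKL145W, chromosome XI, 174213 to 175616) was at 235, 232 and 246 CPM in WT and 335, 356 and 354 CPM in ten1-31. The groups were well apart, and the rise was 0.55 ± 0.07 (SE; edgeR, adjusted p = 0.000525). RPT2, RPT3, RPT4 and RPT5 were at 0.16, 0.16, 0.11 and 0.17. Of these 4, 3 were higher in every ten1-31 library, beside 29.0% of all rows. RPT6 was at 199.9, 201 and 204 CPM in WT and 206, 199 and 197 CPM in ten1-31. That is a difference of -0.01 ± 0.06 (SE; edgeR, adjusted p = 0.925) with overlapping groups.

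The base scaffold and receptor genes held 3 of the 5 largest rises, in RPN2, RPN1 and RPN10, and 1 gene with no call, RPN13. Rpn1 and Rpn2 are the large scaffold subunits of the base, and Rpn1 also docks ubiquitin shuttles. Rpn10 and Rpn13 are ubiquitin receptors. RPN2 (YIL075C, chromosome IX, 217863 to 220700) was at 503, 515 and 489 CPM in WT and 778, 745 and 852 CPM in ten1-31. It rose by 0.66 ± 0.08 (SE; edgeR, adjusted p = 0.000457) and was called in all 16 settings.

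RPN1 (YHR027C, chromosome VIII, 161730 to 164711) was at 496, 467 and 458 CPM in WT and at 829.6, 753 and 507 CPM in ten1-31. RPN10 (YHR200W, chromosome VIII, 499079 to 499885) was at 156, 153 and 139.5 CPM in WT and 256, 236 and 170 CPM in ten1-31. In both genes ten1-31 replicates 1 and 2 were high, while replicate 3 lay only just above WT. RPN1 rose by 0.56 ± 0.17 (SE; edgeR, adjusted p = 0.0254) and RPN10 by 0.56 ± 0.15 (0.0143). The call of RPN1 was lost without ten1-31 replicate 1, at 0.40 (edgeR, adjusted p = 0.0882), without ten1-31 replicate 2, at 0.49 (0.0840), and without WT replicate 3, at 0.53 (0.0970). The call of RPN10 was lost without ten1-31 replicate 2 and without WT replicate 3, at 0.51 each (edgeR, adjusted p = 0.0521 and 0.0686). RPN13 was at 90.8, 106 and 108 CPM in WT and 101, 114 and 98.7 CPM in ten1-31, a difference of 0.05 with overlapping groups.

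None of the 8 lid genes was called, and all 8 differences lay between 0.03 and 0.21 with a median of 0.12. In 6 of 8 the values were higher in every ten1-31 library than in any WT library, beside 29.0% of all rows. An unadjusted p under 0.05 was found for 2 of 8, while 50.5% of all rows passed even the adjusted threshold. RPN5, a scaffold subunit of the lid, was highest at 227, 254 and 266 CPM in WT and 301, 288 and 275 CPM in ten1-31, which is 0.21 ± 0.08 (SE; edgeR, adjusted p = 0.0667). RPN8, the partner of Rpn11 in the deubiquitinase dimer, was lowest at 172, 195 and 199 CPM in WT and 195, 192 and 189 CPM in ten1-31. Its groups overlapped, and the difference was 0.03 ± 0.08 (SE; edgeR, adjusted p = 0.793). RPN11 was at 0.13, and RPN3, RPN6, RPN7, RPN9 and RPN12, further scaffold subunits, were at 0.05, 0.19, 0.12, 0.08 and 0.12. RPN5 and RPN6 were called by DESeq2, with library size only and after chromosome centring, so the lid's count of 0 calls rests on small margins.

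Of the 5 largest rises, 4 lay on chromosomes VIII, IX and XI, where rows in general were higher in ten1-31. The median log2 fold change over rows that are no proteasome gene was 0.35 on VIII (234 rows), 0.38 on IX (173 rows) and 0.42 on XI (289 rows). On the other 13 chromosomes it was between -0.09 and 0.02. The libraries differed: relative to the WT mean, the chromosome VIII rows stood at 0.59, 0.45 and -0.01 in ten1-31 replicates 1, 2 and 3. Chromosome IX rows stood at 0.35, 0.27 and 0.54, and chromosome XI rows at 0.38, 0.44 and 0.46.

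The proteasome genes on these chromosomes followed the same order of libraries. RPN1 deviated from its WT mean by 0.81, 0.67 and 0.10, and RPN10 by 0.78, 0.66 and 0.19. Those are the high, high and low libraries of chromosome VIII. RPN2 deviated by 0.63, 0.57 and 0.76 on chromosome IX, and RPT1 by 0.50, 0.58 and 0.58 on chromosome XI. A difference in the copy number of these chromosomes was not tested, since DNA was not analysed here.

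**Figure D2:**
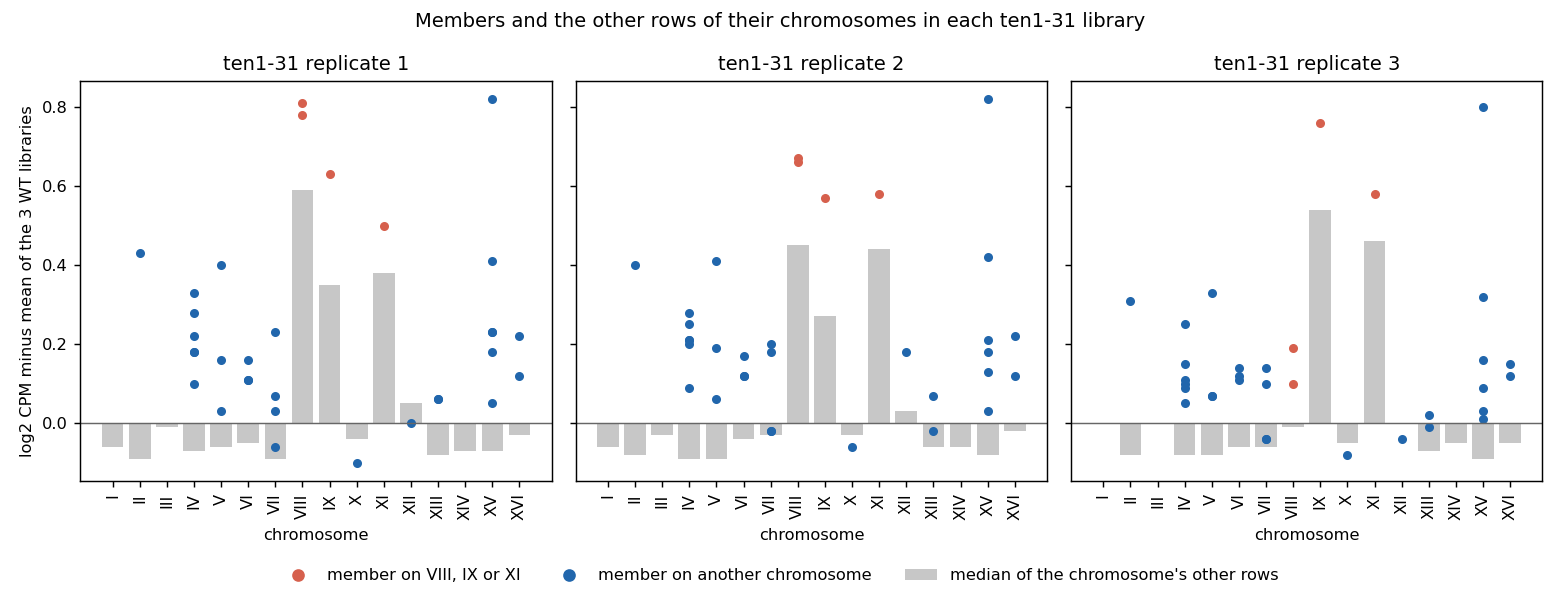
Log2 CPM minus the mean of the 3 WT libraries, by chromosome, in each of the 3 ten1-31 libraries: points are the 33 genes (red on chromosomes VIII, IX and XI) and grey bars are the median of the other rows of the chromosome. The chromosome VIII bar stands at 0.59 and 0.45 in replicates 1 and 2 and at -0.01 in replicate 3, and RPN1 and RPN10 drop in replicate 3 as well.

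On chromosomes VIII, IX and XI all 4 proteasome genes were called higher, beside 57.7% of all rows there. On the remaining chromosomes 7 of 29 were called, or 24.1%, beside 19.0% of rows. The median of those 29 genes was 0.14. When each library's rows were centred on the median of their chromosome, a step chosen after the data were seen, RPT1 fell to 0.12 (edgeR, adjusted p = 0.164) and RPN1 to 0.18 (0.0632), and neither was called. RPN2 kept its call at 0.26 (edgeR, adjusted p = 0.0149) and RPN10 at 0.19 (0.0420), and PUP1 was then at 0.90.

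The centred fit called 18 of 33 genes higher, with 24.4% of all rows called higher. Of these 18, 9 were among the 11 called without centring. Genes that gained a call included RPN4, RPT2 to RPT5, RPN5 and RPN6, each of which lies on a chromosome whose own median was below 0. The median of the 33 was then 0.19, and PRE3 alone was below 0. Scaling by library size only gave 19 calls beside a background of 30.1%. Across all settings the members' median stayed 0.15 to 0.19 log2 units above that of all rows.

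Levels per kilobase of gene length showed how even the RNA levels of the subunit genes were. The median of the 32 subunit genes was 167 ± 2.75 CPM per kb in WT (SD of 3 library medians) and 189 ± 9.58 CPM per kb in ten1-31. Every subunit gene ranked between the 75.7th and 89.3rd percentile of the 5102 rows with a known length. RPN4 was lower, at percentile 61.6, with 71.2 ± 11.6 CPM per kb in WT and 86.3 ± 2.48 in ten1-31 (SD, n = 3).

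Within a WT library the highest subunit gene was 2.07 to 2.24 times the lowest, per kilobase, and within a ten1-31 library 2.41 to 2.55 times. RPN11 was lowest in all 6 libraries, at 119 CPM per kb in WT and 130.4 in ten1-31 on average. PUP2 was highest in the WT libraries, and PUP3 was highest in the ten1-31 libraries. The standard deviation of log2 level over the 32 genes was 0.30, 0.31 and 0.30 in WT and 0.38, 0.37 and 0.36 in ten1-31, beside 1.70 over all rows.

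The RNA levels of the subunit genes were thus less even in every ten1-31 library than in any WT library. Without the 4 genes on chromosomes VIII, IX and XI the values were 0.32, 0.33 and 0.32 in WT and 0.35, 0.35 and 0.34 in ten1-31, so the gap was smaller but the groups still did not overlap. By role, the median level per kb was 175 in WT and 221 in ten1-31 for the core beta genes, and 197 and 232 for the core alpha genes. For the base scaffold and receptor genes it was 181 ± 7.29 in WT and 248 ± 34.1 in ten1-31 (SD of 3 library medians). For the base ATPases it was 155 and 167, and for the lid genes 144 and 154. The lengths are gene spans, and that of PRE3 holds an intron.

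**Figure D3:**
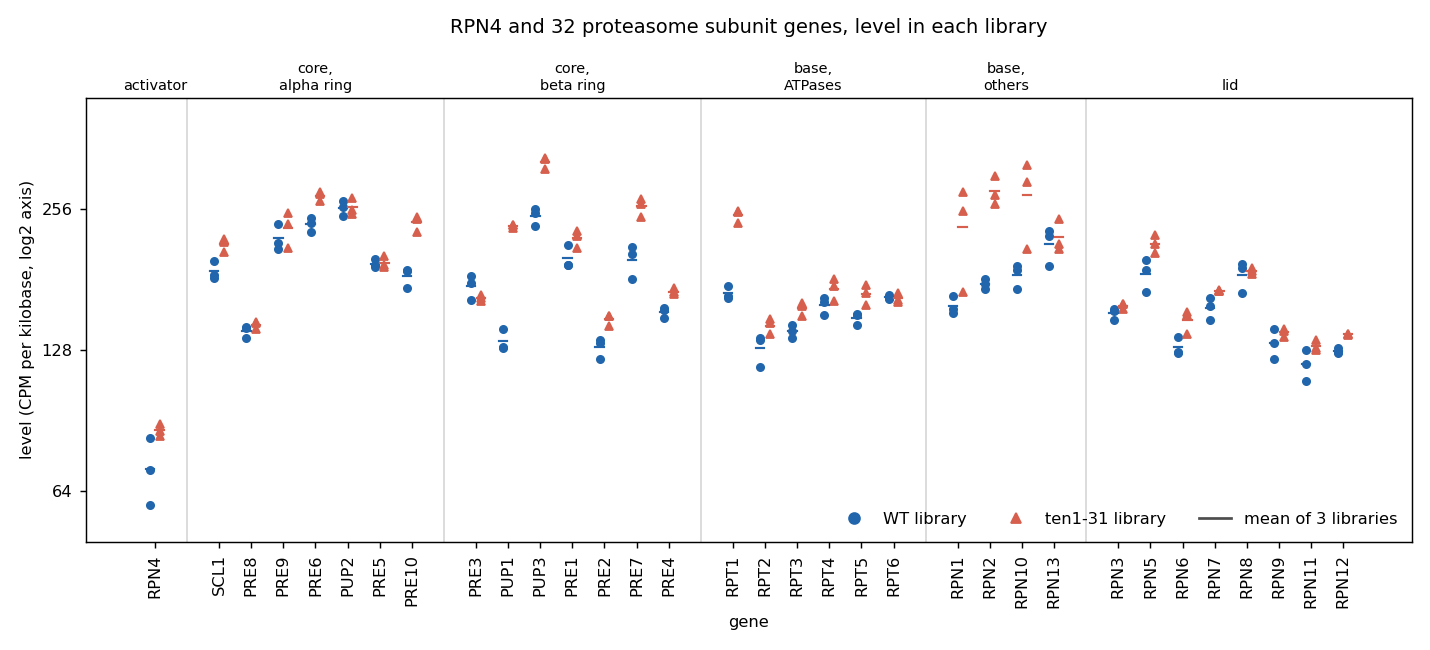
Level in CPM per kilobase (log2 axis) of the 33 genes, ordered by role, with a point for each of the 6 libraries (circles WT, triangles ten1-31) and a line at the mean of 3 libraries. Subunit genes lie within 2.55-fold of each other in any library, and RPN4 lies below them.

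The genes beside the proteasome genes on the chromosome went in both directions. Of 66 neighbouring positions, 4 had no row, and the rest held 60 different genes with a tested row: 14 were higher and 18 lower (edgeR), which is 53.3% called beside 50.5% of all rows, with a median of 0.00. PUP1's neighbours NFI1 and PET123 were at 0.10 and 0.01 and not called. RPT1's neighbours AVT3 and RPC25, also on chromosome XI, rose by 0.48 and 0.39. Of 18 divergent neighbours with a tested row 5 were higher and 5 lower, and RPL11A beside PRE2 fell by 0.68. No neighbouring gene overlapped a proteasome gene in the annotation. The size of the difference had a Spearman correlation with gene length of 0.28 across the 33 genes, 0.11 across the 29 off chromosomes VIII, IX and XI, and 0.17 across all rows, a description over genes that share libraries.

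Of 8 tested genes for assembly chaperones, factors that build the proteasome, 2 rose and 2 fell, and the median was -0.21. That is 4 of 8 called in either direction, beside 50.5% of all rows. UMP1, for the core maturation factor, was at 78.5, 92.0 and 93.5 CPM in WT and 105, 109 and 102 in ten1-31, a rise of 0.26 ± 0.09 (SE; edgeR, adjusted p = 0.0365). POC4 and IRC25, which encode partners in alpha ring assembly, fell by 0.59 and 0.43 (edgeR, adjusted p = 0.00167 and 0.00261). POC4 read 24.6, 22.8 and 26.5 CPM in WT and 17.1, 15.4 and 16.6 in ten1-31, with no overlap. NAS2, a chaperone of the base, rose by 0.38 (edgeR, adjusted p = 0.0469), but lies on chromosome IX and was at -0.02 after centring. HSM3, NAS6 and RPN14, further base chaperones, were at -0.26, -0.10 and -0.15 and not called. ADD66, for a core assembly factor, was at -0.29 and not called; it lies on chromosome XI and was called lower at -0.73 after centring (edgeR, adjusted p = 0.00148). The list's count of rises was 0 with upper quartile scaling and also when WT replicate 3, or replicate 1 or 3 of ten1-31, was left out.

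Of 6 genes for proteins that bind the assembled proteasome 4 rose (66.7%, beside 24.3% of all rows) and 0 fell, with a median of 0.45. ECM29, for a factor that binds both core and cap, was at 220.4, 191 and 193 CPM in WT and 802, 702 and 434 in ten1-31. It rose by 1.68 ± 0.21 (SE; edgeR, adjusted p = 0.000579), a larger value than that of any subunit gene. ECM29 lies on chromosome VIII, and its libraries show that chromosome's order. After centring it was at 1.29 and still called (edgeR, adjusted p = 3.75e-05). BLM10, for an alternative cap of the core, was at 402, 305 and 325 CPM in WT and 571, 565 and 513 in ten1-31, a rise of 0.68 ± 0.11 (SE; edgeR, adjusted p = 0.00202). SEM1, a small lid subunit that is not among the 33, rose by 0.41 (edgeR, adjusted p = 0.00559), and the ubiquitin ligase gene HUL5 by 0.50 (0.00292). UBP6, for the proteasome's other deubiquitinase, was at 0.00, and STS1 was at 0.16 and not called. After centring, 4 of the 6 were called higher and 1 lower: STS1, on chromosome IX, at -0.24 (edgeR, adjusted p = 0.0442).

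**Figure D4:**
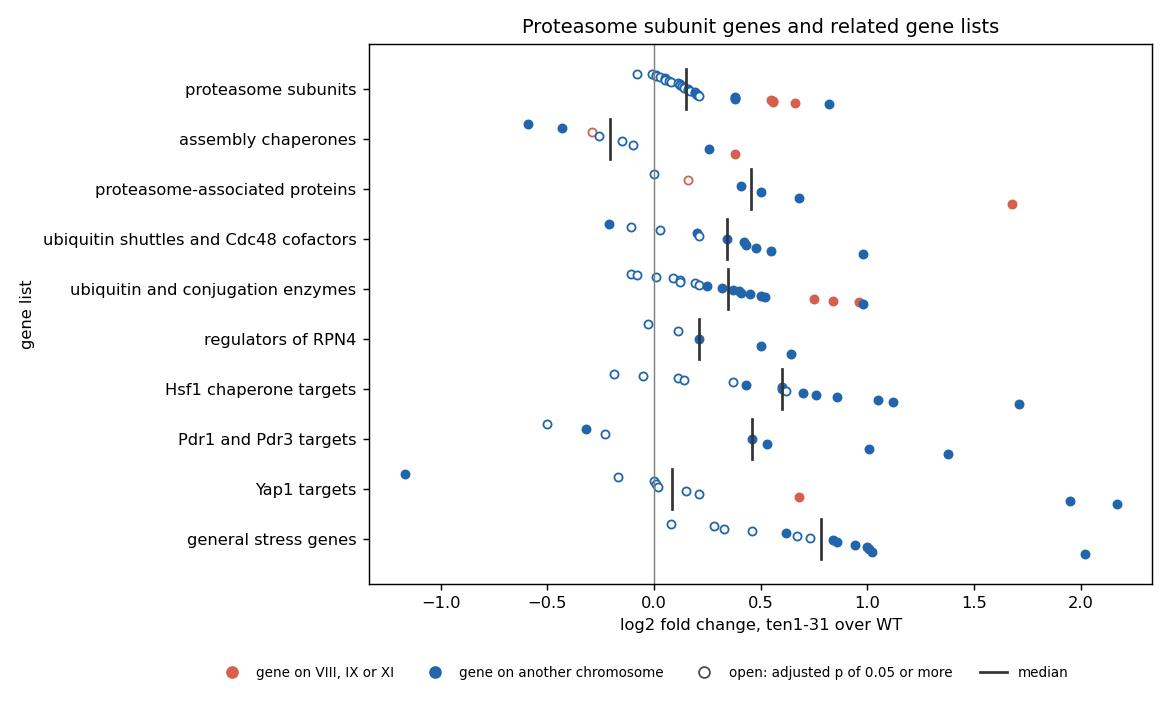
Log2 fold change (ten1-31 over WT) of each tested gene in the proteasome subunit list and 9 related lists, with the median of each list as a bar. Open markers have an adjusted p of 0.05 or more; the subunit genes cluster between -0.08 and 0.82, and ECM29 stands at 1.68.

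Of the 11 genes for ubiquitin shuttles, Cdc48 and its cofactors 7 rose (63.6%) and 1 fell, with a median of 0.34. Of the 20 genes for ubiquitin and conjugation enzymes 12 rose (60.0%) and 0 fell, with a median of 0.35, beside 24.3% of all rows rising. Among those 12, 3 lie on chromosomes IX and XI. The difference of these lists from other rows or from the subunit genes was not tested. TMC1 had the largest rise of the first list, from 46.0, 87.5 and 69.7 CPM in WT to 136, 142 and 122 in ten1-31 (0.98 ± 0.20 SE; edgeR, adjusted p = 0.00558). UFD1, for a Cdc48 cofactor, rose by 0.55, and VMS1, for another, fell by 0.21 (edgeR, adjusted p = 0.00221 and 0.0463). The call of VMS1 was lost with DESeq2 or its size factors, with library size only and with a replicate block. It was also lost without WT replicate 1 or 3 and without any 1 ten1-31 library. After chromosome centring VMS1 was at -0.12 and not called (edgeR, adjusted p = 0.236).

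Among the conjugation enzymes UBC5 rose from 10, 17.4 and 13.0 CPM to 26.5, 29.5 and 23.7 CPM (0.98 ± 0.19 SE; edgeR, adjusted p = 0.00386). UBC4, its close paralogue with which it may share reads, rose by 0.40. UBA1, for the ubiquitin-activating enzyme, and UFD4, for a ligase, rose by 0.84 and 0.96; both lie on chromosome XI and were called after centring too, at 0.40 and 0.52. UBI4, the polyubiquitin gene, was not called. It was at 226, 434 and 349.7 CPM in WT and 392, 411 and 366 in ten1-31, with the widest spread among WT libraries (0.21 ± 0.21 SE; edgeR, adjusted p = 0.419), and its repeats can share reads with other ubiquitin genes.

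Of the 5 tested regulators of RPN4, 3 rose (60.0%, beside 24.3% of all rows) and 0 fell. The count was 2 with upper quartile scaling, with a replicate block and in all leave-one-out fits except that without WT replicate 1. UBR2, for the ligase that marks Rpn4 for degradation, was at 96.3, 86.4 and 82.3 CPM in WT and 141, 139 and 133 in ten1-31, with no overlap. It rose by 0.64 ± 0.08 (SE; edgeR, adjusted p = 0.000577), whereas its partner MUB1 was at -0.03. PDR1 rose by 0.50 (edgeR, adjusted p = 0.00136) and HSF1 by 0.21 (0.0365). YAP1 was at 172, 190.3 and 174 CPM in WT and 197, 197 and 184 in ten1-31, which overlapped, at 0.11 (edgeR, adjusted p = 0.243). PDR3 had no row and was not analysed here. Transcript levels do not measure the Rpn4 protein, whose stability is regulated.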

How the data were processed

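RNA-seq of 6 libraries was analysed: 3 WT and 3 ten1-31. The authors deposited a table of read counts per gene, whole numbers that were not normalized. The submitters' processing notes name FastQC, cutadapt, Trimmomatic, TopHat2, Bowtie2 and featureCounts and the builds R64 and sacCer3; versions and the strand setting are not given in the sources used here, so counts of overlapping or antisense genes and of close paralogues are uncertain. The comparison used edgeR 4.0.16 (quasi-likelihood test, TMM scaling, genotype as the only term) in R 4.3.3 on the whole table, after filterByExpr (minimum count 10, minimum total 15), which kept 5133 of 5143 rows. Benjamini-Hochberg adjustment ran over all rows tested, and a gene was called at an adjusted p under 0.05. The SE of a log2 fold change was taken as its absolute value over the root of the F statistic. CPM values use the TMM-scaled library size. The names on more than 1 row numbered 4, none of them a gene named here. Names, coordinates and lengths came from the RefSeq table of assembly R64.

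No replicate pair agreed within sampling noise (chi-square per degree of freedom at least 5.33). The procedure was tested on simulated data with 1.5-fold and 2-fold changes and no chromosome-wide shifts. Most members' differences here were below 1.5-fold. The members and lists were chosen with earlier results of these data known. Genes named by rule were RPN4, the highest and lowest member of each role, and the largest called rise and fall of each list. UMP1, SEM1, BLM10, UBR2, UBI4, HSF1, YAP1 and PDR1 were named in any case. Of all these genes, NAS2, SEM1, HSF1, PDR1, VMS1 and TPO1 are given without library values. PDR3, RTA1, PBA1 and HXK1 had no row. Other genes were named after their values were seen. Alternatives were 3 scalings, 2 row filters, DESeq2 1.42.0, limma-voom (limma 3.58.1), a replicate block, each library left out in turn, a stricter threshold, a 1.5-fold limit and, chosen after seeing the data, centring by chromosome and leaving out genes on chromosomes VIII, IX and XI.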

Additional observations from a re-analysis of the deposited data

How the results depend on the processing

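The count of proteasome genes called, 11, was 8 to 15 with DESeq2, limma-voom, both row filters, DESeq2's size factors, upper quartile scaling and a replicate block, and 0 genes were called lower in any setting. As shares rising beside all rows in the same fit, DESeq2 gave 45.5% beside 25.8%, upper quartile scaling 24.2% beside 20.7% and the replicate block 24.2% beside 25.5%. The count was 19 with library size only (57.6% beside 30.1% of rows) and 18 after chromosome centring (54.5% beside 24.4%). It was 7 without the genes on chromosomes VIII, IX and XI (24.1% beside 19.0%). It was 6 at an adjusted p under 0.01 (18.2% beside 15.6%) and 2 with a 1.5-fold limit (6.06% beside 10.8%). Leaving out 1 library gave 6 to 11: 6 without WT replicate 3 or ten1-31 replicate 2 and 7 without ten1-31 replicate 1, shares of 18.2%, 18.2% and 21.2% beside 17.4%, 17.3% and 18.5% of rows. The replicate block gave 8 calls, without PRE2, PRE6 and SCL1. Deviations from genotype means correlated at 0.20, 0.21 and 0.09 between same-numbered libraries and at -0.23 to 0.05 between differently numbered ones. Replicate numbers were not taken as pairs in the main fit, and whether same-numbered libraries belong together was not tested. The members' median of 0.16 was 0.24 with library size only and 0.14 to 0.18 leaving out 1 library.

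Rows called numbered 2591, and 1660 at an adjusted p under 0.01, 948 with a 1.5-fold limit and 1824 to 2974 leaving out 1 library. Library size only moved their split from 1248 higher and 1343 lower to 1546 and 1014, and upper quartile scaling to 1062 and 1547. Of the 96 listed pathway genes tested, 56 were called in either direction, beside 50.5% of all rows. Their count was 30 with a 1.5-fold limit and 45 to 64 leaving out 1 library. Of the 60 neighbours with a tested row, 32 were called (53.3%, beside 50.5% of all rows). Their count was 19 at an adjusted p under 0.01, 10 with a 1.5-fold limit and 20 to 38 leaving out 1 library.

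Sign changes concerned genes near 0, none of them called. With upper quartile scaling PUP2 and PRE5 were at -0.04, RPN8 at -0.02, RPN13 at -0.01 and PRE8 at 0.00 from below. RPT6 was at 0.07 with library size only, 0.05 after centring, and 0.00 with DESeq2, its size factors or without WT replicate 3. Leaving out 1 library gave -0.03 to 0.03 for PUP2, -0.02 to 0.02 for PRE5, -0.03 to 0.09 for RPN13, -0.04 to 0.07 for RPN8 and -0.03 to 0.00 for RPT6. Beyond the alternatives' construction, the cause of these changes was not tested. The promoter motif comparisons were not run, as promoter sequences were not used here. Standard errors of the members' differences were 0.06 to 0.17; detection of differences as small as the members' median was not measured.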

Other observations

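Known targets of the factors that act on RPN4 are given here beside the background of 24.3% of all rows rising and 50.5% called in either direction (edgeR, adjusted p under 0.05); no difference from the background was tested. Of 15 chaperone genes under Hsf1, 8 rose (53.3%) and 0 fell, with a median log2 fold change of 0.60. HSP82, for the inducible form of the chaperone Hsp90, was at 545, 614 and 607 CPM in WT and 2187, 1939.7 and 1634 in ten1-31, a rise of 1.71 ± 0.12 (SE; edgeR, adjusted p = 5.45e-05). Its near-identical paralogue HSC82 was at -0.05, and reads can be shared between them. Of 7 tested Pdr1 and Pdr3 targets, 4 rose (57.1%) and 1 fell. PDR5, for a drug efflux pump, was at 2009.8, 1415 and 1493 CPM in WT and 4778, 4302 and 3745 in ten1-31, a rise of 1.38 ± 0.15 (SE; edgeR, adjusted p = 0.000371), while TPO1, for a polyamine transporter, fell by 0.32 (0.0178).

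Of 10 Yap1 targets 3 rose (30.0%) and 1 fell, with a median of 0.09. AHP1, for a thiol peroxidase, was at 387, 239.9 and 282 CPM in WT and 1515, 1369 and 1211 in ten1-31, a rise of 2.17 ± 0.18 (SE; edgeR, adjusted p = 0.000108). ATR1, for a membrane transporter, was at 69.8, 84.9 and 82.4 CPM in WT and 34.1, 35.7 and 35.7 in ten1-31, and fell by 1.17 (edgeR, adjusted p = 9.61e-05). Of 14 tested general stress genes 8 rose (57.1%) and 0 fell, with a median of 0.78. Leaving out 1 library gave 6 to 13 calls, with 13 without WT replicate 2 and 6 without WT replicate 3 or ten1-31 replicate 2, and 5 passed an adjusted p under 0.01. HSP26, for a small heat shock protein, was at 119.7, 363 and 282 CPM in WT and 965, 1053 and 1067 in ten1-31, a rise of 2.02 ± 0.34 (SE; edgeR, adjusted p = 0.0023).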
